A study of Mus musculus with 18 samples.

Results

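The passage of WT mouse embryonic stem cells (mESCs) from day 2 to day 4 of differentiation was read from 4 RNA-seq libraries, 2 of WT day 2 and 2 of WT day 4, out of 18 libraries in all. Their labels give the genotype WT and a time point of 2 or 4 days. The cells are E14 mESCs, a line derived from the mouse blastocyst, with intact Nsd1, the gene of a histone H3K36 methyltransferase. They were kept undifferentiated on inactivated mouse embryonic fibroblast (MEF) feeder cells with leukemia inhibitory factor (LIF), and differentiation was started by withdrawing LIF and MEFs and seeding the cells as a monolayer on gelatin, with passaging every other day. Beside them stand 2 WT libraries of day 0, before the withdrawal, and the KO libraries of the same time points, 4 of day 2 and 4 of day 4. The KO libraries come from KO-1 and KO-2, 2 homozygous clonal lines in which exon 5 of Nsd1 was deleted in E14 cells whose Nsd1 carried a 3×Flag tag. Whether the sequenced WT cells carried the tag is not stated in the sources used here. All cells are of 1 parental line, and a KO line is a single clone.

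Mouse pluripotency passes through recognizable states. Naive cells, which resemble the blastocyst, express Klf4, Esrrb and Tfcp2l1. Formative cells, which resemble the early postimplantation epiblast, express Otx2, Pou3f1, Fgf5 and the de novo DNA methyltransferases. At gastrulation, Nodal, Wnt and BMP signals induce the primitive streak, where cells express the T-box factors T (Brachyury) and Eomes, loosen their epithelial contacts and become mesoderm or endoderm.

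The WT day 2 libraries held 9309874 and 9356867 counts on genes and the WT day 4 libraries 15479919 and 23921193, so that the days also differed in depth. Values below are normalized counts, the counts divided by the size factors of the authors, unless a log2 fold change is named. Log2 fold changes are differences of the deposited variance stabilized (VST) values, which compress changes of weakly expressed genes. The test was limma on the VST values of all 18 libraries with Benjamini-Hochberg adjustment over 20703 genes, and genes were called where the adjusted p was below 0.01 and the log2 fold change exceeded 0.58 in either direction. The replicates are described as independent biological samples. The p-values measure a spread pooled over the 6 groups of genotype and day of all 18 libraries, with the KO clones in 1 group per day. In the fit of the 4 compared libraries alone, 1550 genes were called. An exact permutation test of 2 libraries against 2 cannot go below p = 0.333 (2-sided), so the tests are those of the fit across all genes.

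From day 2 to day 4, 1814 genes were called, 1178 higher (5.69% of the genes tested) and 636 lower (3.07%). The counts of called genes in single lists below are to be read against these shares. The higher genes took 6.03% of the normalized counts at day 2 and 17.6% at day 4, and the lower genes 15.5% and 7.82%. Rises went further than falls: 72 of the higher genes and 8 of the lower genes changed by more than 2 on the log2 scale. The replicates were close to each other, with a median absolute difference of 0.072 at day 2 and 0.052 at day 4, against 0.143 between the days, and only 1 gene differed by more than 0.58 between replicates at day 2 and 0 at day 4. In all 1814 called genes the libraries of the 2 days did not overlap, but this held for 69.4% of all genes, with day 4 higher in 31.5% and lower in 37.9%. On counts recovered from the VST values, limma-voom called 2534 genes higher (12.2%) and 2454 lower (11.9%), so that the share of rises among the calls was 64.9% on the VST scale and 50.8% on the counts. At an unadjusted p under 0.05 stood 10220 of all genes (49.4%), a share against which such counts for single lists are to be read. The median fold change of all genes was −0.02 on the VST scale and −0.17 with limma-voom. In bulk libraries, more cells of a kind and more RNA per cell cannot be told apart.

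The largest rise on the VST scale was that of T, the T-box factor that marks the primitive streak. T had 24.4 and 21.1 normalized counts in the day 2 libraries and 16441 and 16055 in the day 4 libraries. It rose by 5.31 on the VST scale (SE 0.14, adjusted p = 3.44e-17, limma), or 714-fold in normalized counts. On the VST scale the 10 largest rises also held Mixl1 and Sp5, factors of the streak, and the insulin-like growth factor binding protein Igfbp3. The others were the keratins Krt8 and Krt19, the interferon-inducible GTPases Gbp2 and Gbp2b, Sfn (14-3-3 sigma) and the extracellular matrix gene Fn1 (fibronectin). Igfbp3 went from 561 and 642 to 24051 and 22280 normalized counts. Fn1, already abundant at day 2 with 3481 and 4195, reached 54170 and 49015. Gbp2 and Gbp2b are close copies that may share reads, so their rises (3.64 and 3.65) are not independent values.

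The largest fall on the VST scale was that of Dnmt3b, a de novo DNA methyltransferase, from 42343 and 45174 normalized counts to 5919 and 5640. It fell by 2.79 on the log2 scale (SE 0.09, adjusted p = 6.82e-16, limma). Next came Mkrn1 (a ring finger ubiquitin ligase), Pdzd4, Utf1 (a chromatin factor of pluripotent cells), the kinase Pim2 and Klhl13, and the epiblast factors Otx2 and Foxd3 and the noncoding transcript Platr10 were also among the 10 largest falls. Foxd3 had 994 and 1024 normalized counts at day 2 and 17.1 and 13.9 at day 4, a 65.1-fold fall in normalized counts. The plot of the largest changes shows every library of both days.

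**Figure D1:**
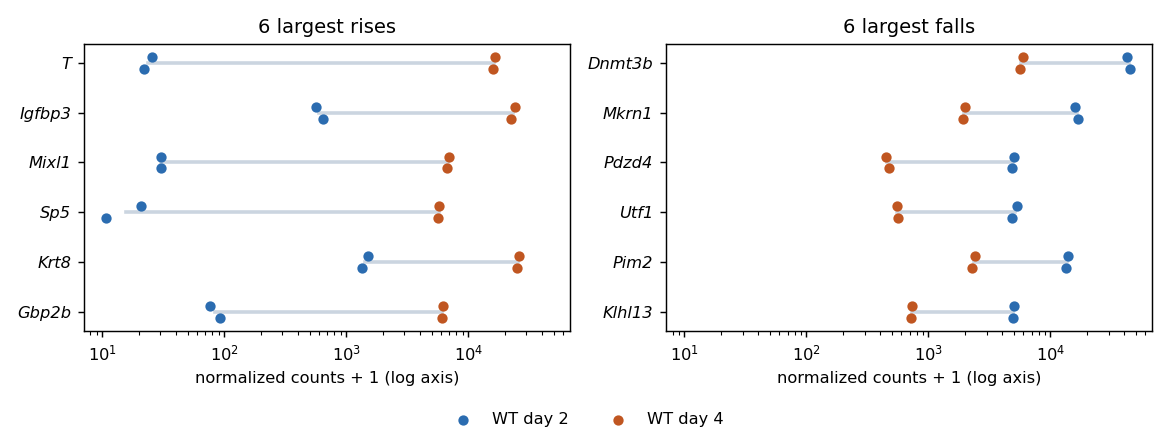
Normalized counts + 1 (log axis) of the 6 genes with the largest rise (left) and the 6 with the largest fall (right) on the VST scale. Colours mark WT day 2 (blue) and WT day 4 (orange). Each point is 1 library and each line joins the means of the days. The days are apart in every gene, the replicates of Sp5 at day 2 (19.6 and 9.72) are the farthest from each other on this axis, and T spans the widest range, from 21.1 to 16441 normalized counts.

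The primitive streak list, of 15 transcription factors and signals, moved as a block: 14 genes rose and 0 fell, with a median log2 fold change of 2.36, against −0.02 over all genes. Mixl1, a homeobox factor of the streak, rose from 29.3 and 29.2 normalized counts to 6928 and 6730 (log2 fold change 4.08, SE 0.07). Eomes, the T-box factor needed for endoderm and early mesoderm, rose from 228 and 227 to 5793 and 5481 (3.09, SE 0.14). Sp5, a zinc finger factor and direct Wnt target, rose from 19.6 and 9.72 to 5716 and 5687 (3.97, SE 0.10). All 15 genes had day 4 libraries above both day 2 libraries, as had 31.5% of all genes. The gene that was not called, Tbx6, had 13 and 14.6 normalized counts at day 2 and 116 and 115 at day 4; its fold change of 0.55 was under the threshold on the compressed scale (adjusted p = 7.25e-08, limma), and limma-voom called it at 2.99. The call of Mesp2 (0.59) was lost without replicate 1 of WT day 2 or replicate 2 of WT day 4.

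Several streak genes started from almost nothing. The following were picked after their values had been seen. Msgn1, a bHLH factor of the presomitic mesoderm, had 0 counts in both day 2 libraries and 1015 and 1171 normalized counts at day 4. Evx1, a posterior homeobox factor, had 2 and 0 counts at day 2 and 1989 and 2125 normalized counts at day 4. Lhx1, a LIM homeobox factor of axial mesoderm and anterior endoderm, went from 4.89 and 9.72 to 2381 and 2146. Mesp1, which marks the earliest cardiac mesoderm, went from 9.78 and 0 to 568 and 648. In the whole table, 14 of the genes that rose had 0 counts in both day 2 libraries, and 5 of the genes that fell had 0 counts in both day 4 libraries.

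Promoters of streak genes are shown because T, Sp5, Msgn1 and Mesp1, which rose together, share the letters CTTTGA in them. CTTTGA is a core of the site bound by TCF/LEF factors, the DNA-binding partners of beta-catenin. The RefSeq promoter table used here (build GRCm38.p6, from 250 bases before to 50 bases after the start) was matched for 12 of the 15 listed genes, all but Mixl1, Cdx1 and Fgf8, and 4 of the 12 hold CTTTGA on either strand; of all 32851 windows, 16% do. The related letters CTTTGT, which also occur in sites of SOX factors, are in 4 of the 12 and in 18.7% of all windows. A match is a description of the letters and not evidence of binding. The windows lie at chr17:8434173-8434472 (plus strand) for T, chr2:70474673-70474972 (plus) for Sp5, chr12:11208899-11209198 (minus) for Msgn1 and chr7:79793541-79793840 (minus) for Mesp1. They are printed 5′ to 3′ on the strand of the gene, with CTTTGA or its reverse complement in capitals.
T: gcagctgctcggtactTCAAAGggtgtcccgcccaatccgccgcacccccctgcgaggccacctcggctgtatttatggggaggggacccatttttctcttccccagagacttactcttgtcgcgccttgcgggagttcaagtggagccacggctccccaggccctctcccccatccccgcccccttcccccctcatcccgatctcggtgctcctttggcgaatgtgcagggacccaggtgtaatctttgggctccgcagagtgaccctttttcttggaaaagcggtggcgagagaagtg
Sp5: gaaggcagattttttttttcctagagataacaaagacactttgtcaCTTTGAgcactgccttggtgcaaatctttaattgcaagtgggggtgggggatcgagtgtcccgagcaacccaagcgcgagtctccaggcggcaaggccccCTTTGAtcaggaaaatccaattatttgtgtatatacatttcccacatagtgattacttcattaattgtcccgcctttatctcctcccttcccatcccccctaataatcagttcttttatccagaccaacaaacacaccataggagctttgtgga
Msgn1: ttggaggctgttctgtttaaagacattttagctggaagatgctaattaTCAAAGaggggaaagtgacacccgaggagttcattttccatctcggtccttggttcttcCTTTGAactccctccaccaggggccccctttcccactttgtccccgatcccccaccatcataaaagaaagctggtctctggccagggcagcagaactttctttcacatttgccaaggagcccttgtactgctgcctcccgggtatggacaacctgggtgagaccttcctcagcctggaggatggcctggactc
Mesp1: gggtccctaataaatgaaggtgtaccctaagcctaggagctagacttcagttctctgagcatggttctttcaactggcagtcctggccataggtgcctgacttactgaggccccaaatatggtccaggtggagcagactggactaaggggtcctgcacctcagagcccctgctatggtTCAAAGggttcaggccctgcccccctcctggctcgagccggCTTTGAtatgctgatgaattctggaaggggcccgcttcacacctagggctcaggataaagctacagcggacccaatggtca
Sp5 holds 2 such matches and 3 of CTTTGT, Msgn1 and Mesp1 hold 2 of CTTTGA each, and T holds 1, in the upstream part of the window. The windows of Eomes, Evx1, Gsc, Lhx1, Mesp2, Snai1, Tbx6 and Wnt3 hold no CTTTGA, and 7 of these 8 genes rose by the same call.

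The 14 naive pluripotency genes summed to 64191 and 63963 normalized counts at day 0, and to 4069 and 4106 at day 2 and 4278 and 4153 at day 4. Klf4, a reprogramming factor, had 97.8 and 113 normalized counts at day 2 and 103 and 112 at day 4; its log2 fold change was 0.01 with a 95% interval of −0.26 to 0.28. Of 14 naive genes, 4 fell and 2 rose. Esrrb, a nuclear receptor of naive cells, fell from 437 and 420 to 96.6 and 99.8, and Klf2 from 332 and 387 to 92.6 and 89.7. Fgf4 fell from 1362 and 1276 to 74.5 and 81.5. The rises were those of Klf5, from 420 and 486 to 2393 and 2308 (log2 fold change 1.57, SE 0.11), and of the T-box factor Tbx3, from 92.9 and 89.1 to 647 and 610 (1.11, SE 0.07). At day 0 Klf5 had 2998 and 3028 normalized counts and Tbx3 5033 and 5032, so that both ended below their day 0 values, Tbx3 by far more.

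The core pluripotency factors parted. Sox2, a partner of Oct4, fell from 2032 and 2063 to 253 and 217 normalized counts (log2 fold change −1.83, SE 0.07, adjusted p = 1.24e-14, limma). Pou5f1 (Oct4) fell far less, from 9384 and 8388 to 5468 and 5366 (−0.65, SE 0.10); its call was lost without replicate 1 of WT day 2 and in the fit of the 4 libraries alone. Nanog had 1067 and 1130 at day 2 and 1914 and 2024 at day 4 (0.61, SE 0.15, adjusted p = 0.00314, limma), and its call was lost when any 1 of the 4 libraries was left out and under quantile normalization. Tdgf1 (Cripto), the Nodal coreceptor, rose from 5130 and 4895 to 8091 and 8556. In all, 6 of the 11 core genes fell, with Utf1 and Dppa5a the deepest beside Sox2, and 2 rose.

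The formative list had 6 falls and 2 rises among 14 genes. Otx2, a homeobox factor of the epiblast and anterior neural tissue, fell from 2275 and 2415 to 258 and 200 normalized counts, and the POU factor Pou3f1 (Oct6) from 5645 and 5713 to 1867 and 1685. Dnmt3a, the other de novo methyltransferase, fell from 9898 and 10127 to 2444 and 2228. Fgf5 had 1673 and 1467 at day 2 and 1102 and 1119 at day 4, and its fold change of −0.35 (95% interval −0.79 to 0.09) was not called. The rises were those of Cdh2 (N-cadherin), from 280 and 301 to 6682 and 6233, and Lef1, a partner of beta-catenin. Among 9 genes of DNA methylation, 4 fell: Dnmt3b, Dnmt3a, Dnmt3l (the cofactor of both enzymes) and the 5-methylcytosine oxidase Tet1 (3 fell without any 1 of the 4 WT libraries and in the fit of the 4 alone); the maintenance enzyme Dnmt1 was at 4636 and 5065 at day 2 and at 4667 and 4376 at day 4.

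**Figure D2:**
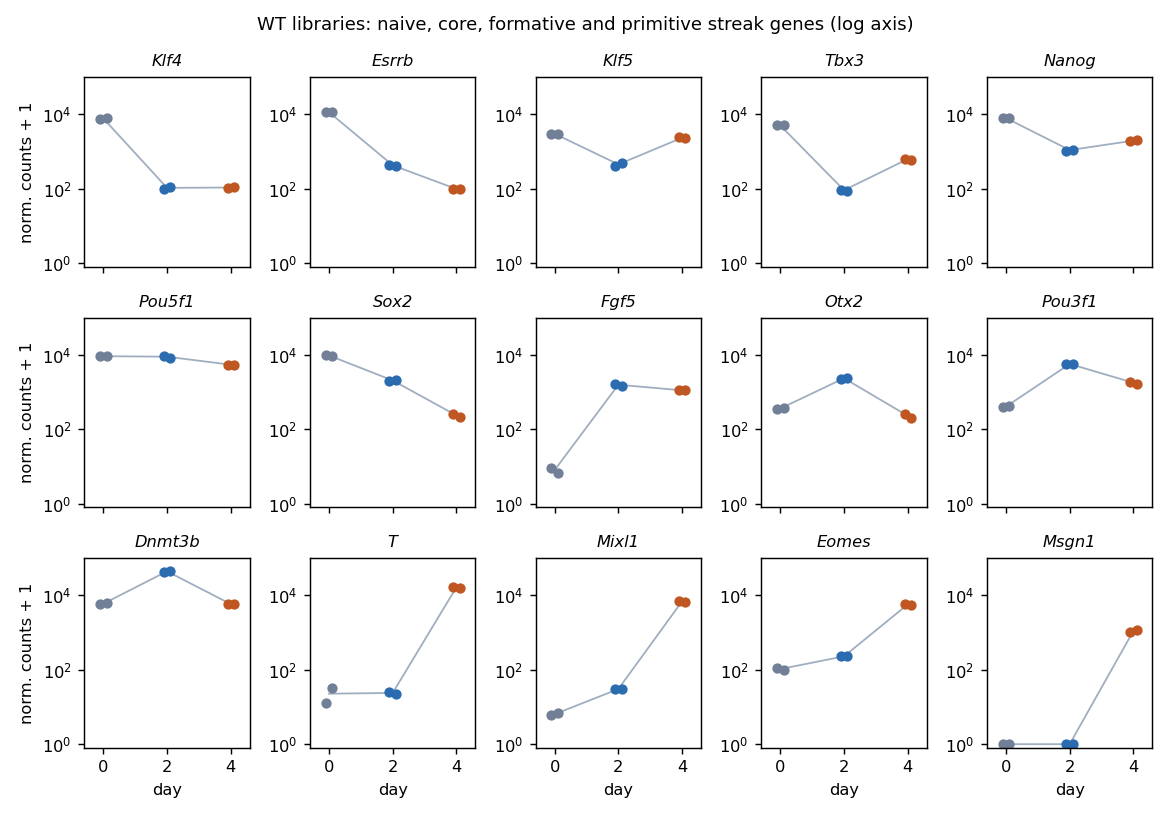
Normalized counts + 1 (log axis) of 15 genes in the WT libraries against the day (0, 2 or 4); each point is 1 library (grey day 0, blue day 2, orange day 4) and the line joins the means. Otx2, Pou3f1 and Dnmt3b are highest at day 2, T, Mixl1, Eomes and Msgn1 are high at day 4 alone, and Klf5, Tbx3 and Nanog are lowest at day 2.

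Some genes of the signals that induce and pattern the streak were called too. Of 25 Wnt pathway genes 11 rose and 1 fell. Wnt3, the ligand required for gastrulation, went from 137 and 105 normalized counts to 2097 and 2106 (log2 fold change 2.19, SE 0.07). Wnt5a, a noncanonical ligand, went from 13 and 16.2 to 2152 and 1928 (2.71, SE 0.06), Wnt6 from 22.8 and 9.72 to 1945 and 2086 (2.69, SE 0.06), and Wnt3a from 3.26 and 3.24 to 138 and 173. Over the whole Wnt list, the day 4 libraries lay above both day 2 libraries in 22 of the 25 genes (31.5% of all genes). They lay below in 2 (37.9%). Sfrp1, a secreted Wnt antagonist, fell from 688 and 763 to 127 and 105. The negative feedback gene Axin2, picked after its values had been seen, rose from 499 and 395 to 2238 and 1997.

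FGF ligands were exchanged. Fgf4 fell 16.9-fold, while Fgf8, the FGF of the streak, rose from 50.5 and 68.1 to 2153 and 2307 normalized counts (2.51, SE 0.07), and Fgf10 from 3.26 and 11.3 to 770 and 766. Fgf15 fell from 329 and 269 to 41.3 and 46.7. Dusp4, a phosphatase induced by ERK signaling, rose from 1089 and 1324 to 9909 and 9768, and in all 8 of the 20 FGF pathway genes rose and 2 fell; the call of Fgf3 (0.59) was lost without replicate 2 of WT day 4.

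In the Nodal pathway, 7 of 17 genes rose and 1 fell, with 5 rises without replicate 1 of WT day 2 and 6 without replicate 1 of WT day 4, under quantile normalization and in the fit of the 4 libraries alone. Lefty2, an antagonist that Nodal signaling induces, rose from 614 and 645 to 5495 and 5130 normalized counts (2.31, SE 0.15), whereas its paralog Lefty1 had 888 and 917 at day 2 and 613 and 683 at day 4 and was not called (−0.29). Nodal itself had 1199 and 1170 at day 2 and 1825 and 1891 at day 4, a fold change of 0.47 that was under the threshold (adjusted p = 6.43e-06, limma). Gdf3, a Nodal-related ligand, fell from 662 and 561 to 119 and 131.

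Of 21 BMP pathway genes 7 rose and 0 fell; the day 4 libraries lay above both day 2 libraries in 17 of the 21 (31.5% of all genes) and below in 3 (37.9%). Bmp2 rose from 3.26 and 3.24 to 807 and 755 and Bmp4 from 88.0 and 87.5 to 616 and 717. The antagonist Nog had 6 and 0 counts at day 2 and 402 and 482 normalized counts at day 4, and the target Msx1 rose from 65.2 and 64.8 to 1272 and 1353. Of 14 Notch and segmentation genes, 3 rose (Dll3, Hes1 and Mesp2) and 0 fell (8 and 1 with limma-voom), with 11 of the 14 at an unadjusted p under 0.05, against 49.4% of all genes.

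**Figure D3:**
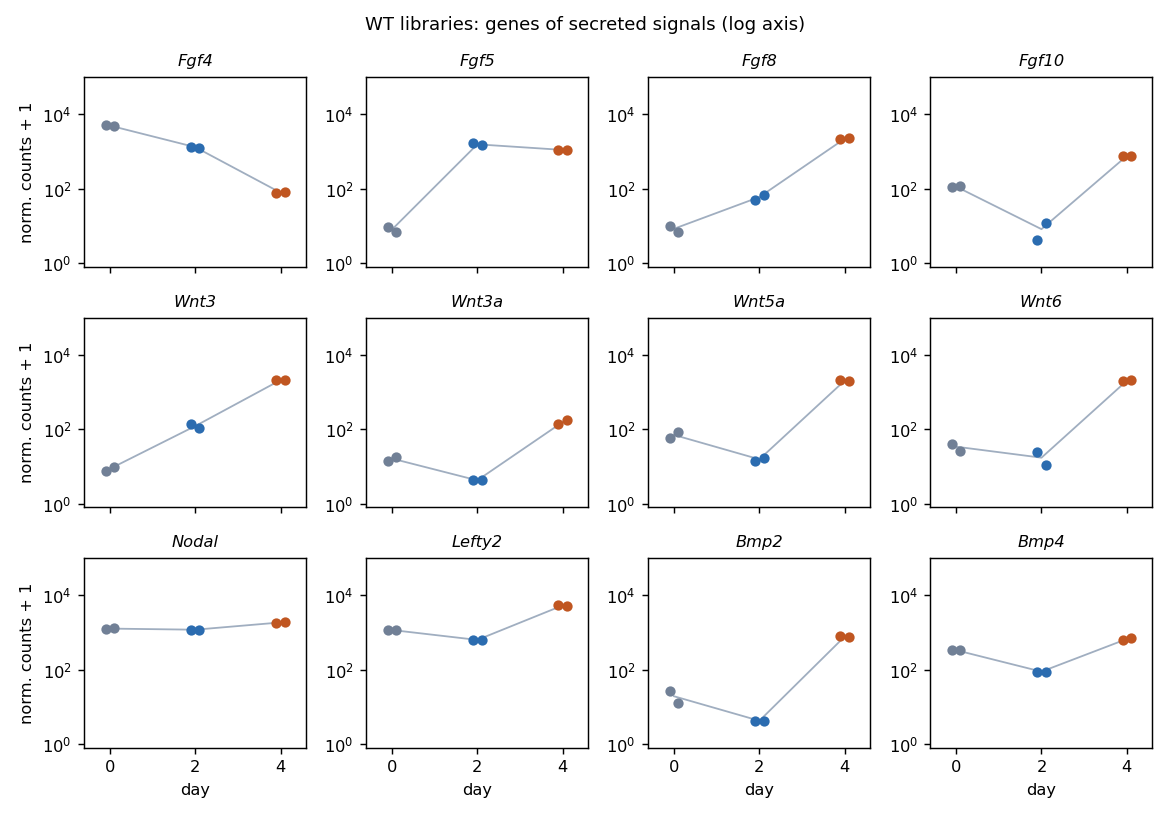
Normalized counts + 1 (log axis) of 12 genes of secreted signals in the WT libraries against the day (0, 2 or 4); each point is 1 library and the line joins the means. Fgf4 falls at each step, Fgf8, Wnt3, Wnt5a, Wnt6 and Bmp2 are highest at day 4, and Nodal stays within 1170 and 1891 normalized counts over all 3 days.

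Genes of posterior identity and retinoid handling were few but steep. Cyp26a1, the enzyme that degrades retinoic acid, rose from 13 and 13 to 3446 and 3532 normalized counts (3.36, SE 0.07). Cdx2, a posterior homeobox factor, rose from 9.78 and 9.72 to 1084 and 1113, and Cdx1 from 0 and 6.48 to 296 and 275, while Cdx4 stayed at 12 or less. Rarg, a retinoic acid receptor, fell from 2107 and 2284 to 853 and 798. Of 32 genes of the Hox clusters 3 rose and 0 fell, where 5.69% of all genes were called higher and 3.07% lower. Limma-voom called 7 higher and 1 lower, against 12.2% and 11.9% of all genes. The 15 at an unadjusted p under 0.05 were near the 49.4% of all genes. Hoxb1, with the largest fold change of the 3 that rose, had 6.52 and 11.3 at day 2 and 232 and 253 at day 4.

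Genes of both the mesenchymal and the epithelial list changed. Of 13 mesenchymal genes 8 rose and 0 fell, with a median of 1.22; Zeb1, Snai2, Twist1, Mmp2 and Tnc were not called. Vim (vimentin) rose from 1626 and 1718 to 20914 and 19209, Cdh11 from 22.8 and 16.2 to 1080 and 1018, and the fibronectin receptor subunit Itga5 from 772 and 773 to 3964 and 3889. The repressor of Cdh1, Snai1, picked after its values had been seen, rose from 40.7 and 50.2 to 1348 and 1301. Cdh1 (E-cadherin) had 12875 and 12821 at day 2 and 12757 and 12090 at day 4, with a fold change of −0.05 and a 95% interval of −0.33 to 0.24. Epcam fell from 4263 and 4144 to 2448 and 2519 (−0.64). Some other epithelial genes rose. Krt8 went from 1506 and 1334 to 26277 and 24930, and its partner Krt18 from 1238 and 1373 to 9510 and 9638. Krt19 went from 209 and 178 to 7109 and 6967, and the tight junction gene Cldn4 from 932 and 739 to 3551 and 3775. In total 5 of the 13 epithelial genes rose and 1 fell (2 under quantile normalization, with 9 groups of line and day, and in the fits of the 4 or the 6 WT libraries alone). The other 7 were not called, and the median of the list was 0.03. The day 4 libraries lay above both day 2 libraries in 6 of the 13 (31.5% of all genes) and below in 5 (37.9%).

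Matrix genes rose in part. Among 42 collagens 5 rose and 1 fell, with a median of 0.05, where 5.69% of all genes were called higher and 3.07% lower. Limma-voom called 12 higher and 4 lower, against 12.2% and 11.9% of all genes. Col5a1 rose from 341 and 313 to 8992 and 8556, and Col4a1 (basement membrane) from 1049 and 1117 to 3331 and 3235. Col18a1 fell from 11529 and 12394 to 4649 and 4234. Of 19 integrins 5 rose and 0 fell. Col5a1, Col1a1, Acta2 and Pdgfrb were also the 4 of 16 feeder fibroblast genes that rose, 0 having fallen. The summed feeder list was 2056 and 1867 at day 2 and 13342 and 12745 at day 4, and Col5a1 was the most abundant. Limma-voom called 7 of the 16 higher and 1 lower, and the day 4 libraries lay above both day 2 libraries in 12 of them (31.5% of all genes) and below in 2 (37.9%). The 7 genes used as defining markers of these fibroblasts summed to 1045 and 900 at day 2 and to 2327 and 2175 at day 4. Col1a1, the most abundant of the 7, went from 460 and 408 to 1644 and 1522, and Lum and Postn stayed below 10 normalized counts in all 4 libraries. The part of remaining feeder RNA in the rises of matrix genes was not tested.

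Some genes of the derivatives of the streak rose. Of 20 genes of mesoderm derivatives 7 rose and 1 (Tcf15) fell. Kdr (the VEGF receptor of blood and vessel progenitors) had 0 counts in both day 2 libraries and 990 and 929 normalized counts at day 4. Pdgfra rose from 57.0 and 48.6 to 857 and 833, and Hand1 from 22.8 and 13 to 262 and 266. Of 11 endoderm genes 4 rose and 1 fell. Gata6 rose from 3.26 and 9.72 to 573 and 513, Gata4 from 116 and 87.5 to 671 and 729, and Gsc from 9.78 and 9.72 to 268 and 302, while the markers of definitive endoderm Sox17 (6.52 and 16.2, then 20.1 and 21.5) and Foxa2 (9.78 and 9.72, then 12.1 and 18.9) were not called. Trh, on that list, fell from 1990 and 1935 to 262 and 295. The list of 20 factors followed by the study, chosen on these samples, had 13 rises and 0 falls.

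Markers of other lineages moved both ways. Of 14 neuroectoderm genes 1 rose and 2 fell, where 5.69% of all genes were called higher and 3.07% lower. Nes (nestin, also in other progenitors) rose from 2161 and 2337 to 5624 and 5247. Pax6 fell from 88.0 and 76.2 to 0 and 1.89, and Neurod1 from 130 and 100 to 6.04 and 10.1. The call of Pax6 was lost without replicate 1 of WT day 4 and that of Neurod1 without replicate 1 of WT day 2. Sox1 had 22.8 and 30.8 at day 2 and 6.04 and 0 at day 4. In 10 of the 14 neuroectoderm genes the day 4 libraries lay below both day 2 libraries (37.9% of all genes). They lay above in 1 (31.5%). Of 10 trophoblast genes the 2 that rose were Eomes and Cdx2, which the streak also uses. Limma-voom called 6 of the 10 higher and 1 lower, and the day 4 libraries lay above both day 2 libraries in 7 of them (31.5% of all genes) and below in 1 (37.9%). Krt7, the most abundant of the defining trophoblast markers, had 127 and 138 at day 2 and 296 and 339 at day 4, and Elf5 was at 4.03 or less. Of 14 genes of primitive and visceral endoderm, Gata6, Pdgfra, Sparc and Gata4 rose and 0 fell, and the list summed to 4760 and 4256 at day 2 and 12658 and 12627 at day 4. Its 8 defining markers summed to 869 and 895 and then 808 and 788, with Dab2 the most abundant (538 and 559, then 495 and 454).

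**Figure D4:**
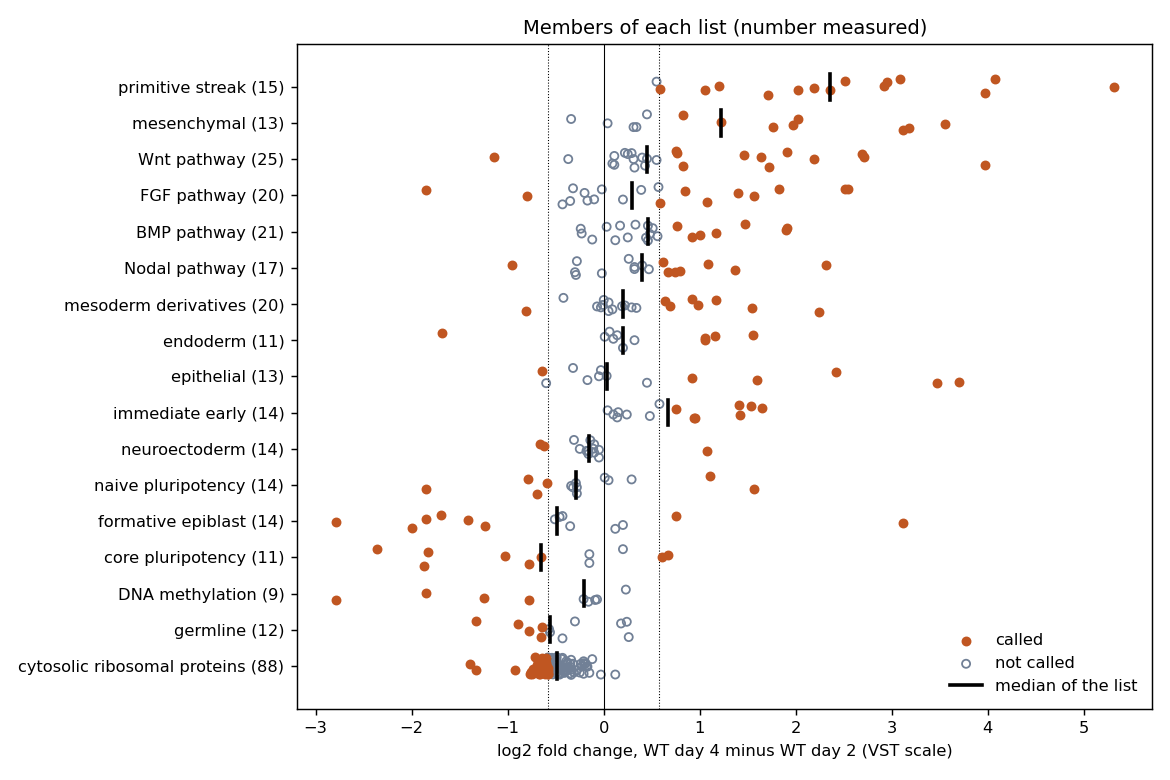
Log2 fold change from WT day 2 to WT day 4 on the VST scale for the measured members of 17 gene lists (number in brackets); filled points were called, open points were not, bars are the medians of the lists, and the dotted lines mark ±0.58. The primitive streak list lies to the right, with a median of 2.36, and the cytosolic ribosomal proteins to the left, with a median of −0.49.

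LIF, a cytokine that acts through STAT3, had been withdrawn from the medium at both days. Of 10 genes of its pathway 4 rose and 0 fell: Junb from 238 and 276 to 1759 and 1859, the shared receptor subunit Il6st from 805 and 853 to 2928 and 2792, Stat3 from 303 and 331 to 970 and 899, and Pim1 from 1696 and 1705 to 3698 and 3372. The other 6 were not called, and the median of the list was 0.37. Lifr, 1 of these 6, had 199 and 272 and then 245 and 196. Among 14 immediate early genes 7 rose and 0 fell; Fos went from 42.4 and 35.7 to 346 and 371, Fosl2 from 117 and 133 to 1107 and 1179 and Atf3 from 121 and 77.8 to 840 and 1012.

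Of 12 germline genes 5 fell and 0 rose; Mael fell from 619 and 588 to 38.2 and 41.7, Sohlh2 from 143 and 149 to 2.01 and 0, and Dazl from 163 and 146 to 8.05 and 3.79. Limma-voom called 9 of them lower and 1 higher. Among 17 imprinted genes 3 rose and 1 fell, where 5.69% of all genes were called higher and 3.07% lower. The retrotransposon-derived Peg10 rose from 5017 and 5721 to 53981 and 46308 and Peg3 from 2317 and 2457 to 15863 and 14297, while Snrpn fell from 2358 and 2122 to 930 and 831. H19 and Igf2, which share a control region, were not called.

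Cytosolic ribosomal protein genes fell in 26 of 88 cases and rose in 0, with a median of −0.49. They held 6.9% and 5.91% of the counts in the day 2 libraries and 4.31% and 4.32% in the day 4 libraries. The deepest falls were those of the paralogs Rpl10l (525 and 517 to 20.1 and 13.9) and Rpl39l (500 and 447 to 14.1 and 17.7). Rps14 fell from 19081 and 15362 to 8188 and 9282. Replicate 1 of WT day 2 weighed on the count: 5 genes were called without it, and 25, 9 and 8 without replicate 2 of day 2, replicate 1 and replicate 2 of day 4, 8 under quantile normalization and 4 in the fit of the 4 libraries alone, with a median between −0.59 and −0.38 in these fits. Many of these genes have processed pseudogenes that may take some of their reads. Of 17 genes encoded in mitochondria 5 fell and 0 rose, and their share of the counts was 1.18% and 1.21% at day 2 and 0.938% and 0.813% at day 4; 3 were called without any 1 of the 4 libraries and in the fit of the 4 alone, and mt-Nd4 lost its call in each of these. Of 81 nuclear genes of the electron transport chain 2 fell (Atp5g1 and Atp5a1), and of 77 mitochondrial ribosomal proteins 1 (Mrpl15), with 0 rises in both, against 3.07% of all genes called lower. These counts of falls were 5 and 4 without replicate 2 of WT day 2, 3 and 3 without replicate 2 of WT day 4, 5 and 5 under quantile normalization and 7 and 14 with limma-voom, which called 11.9% of all genes lower.

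Of 20 genes of glucose use 1 rose and 3 fell, near the 5.69% of all genes called higher and against 3.07% called lower. The glucose transporter gene Slc2a3 rose from 12265 and 13013 to 40693 and 37353. Pdk1, Pfkm and Ldha fell. Ldha (−0.60) lost its call under quantile normalization, without replicate 2 of WT day 4 and in the fit of the 4 libraries. Without replicate 1 of WT day 4, 5 of these genes fell, and without replicate 1 of WT day 2, 4. Of 18 cell cycle and Myc genes Cdkn1a (p21), Ccnd1 and Mycl rose and 0 fell, with 5 rises without replicate 2 of WT day 2. Among 12 PRC2 genes Epop rose and Jarid2 fell, where 5.69% of all genes were called higher and 3.07% lower. Under quantile normalization 0 of the 12 rose and 2 fell. Of 7 H3K36 methyltransferase genes 0 were called in the step, with 5 at an unadjusted p under 0.05 (49.4% of all genes) and 0 called by limma-voom. The day 4 libraries lay above both day 2 libraries in 6 of the 7 (31.5% of all genes) and below in 1, and the median was 0.15; Nsd1 had 2773 and 3344 at day 2 and 2425 and 2111 at day 4 (−0.35, SE 0.13, adjusted p = 0.0365, limma).

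The WT step was compared with the same step in KO cells, which share no library with it. In KO cells 191 genes rose (0.923%) and 117 fell (0.565%) from day 2 to day 4. The difference between the steps was tested itself: 883 genes had a more positive step in WT (4.27%) and 445 a more negative one (2.15%). The largest positive difference was in Fn1, which rose in WT and fell in KO cells, from 17338 ± 1516 to 8163 ± 666 normalized counts (SD, n = 4); the steps differed by 4.58 (SE 0.13, adjusted p = 5.39e-16, limma). Mixl1 had 22.4 to 51.3 normalized counts in the 4 KO libraries of day 4, and the difference was 3.93 (SE 0.08). For T, the 4 KO libraries held 0 to 4.07 normalized counts at day 2 and 60.2 to 226 at day 4. The T steps differed by 4.49 on the VST scale (SE 0.17, adjusted p = 4.57e-14, limma), but by 2.90 with limma-voom (adjusted p = 0.197), and the cause was not tested.

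Of the 15 streak genes, 14 had a called positive difference and 0 a negative one, and 5 rose in KO cells too. Sp5 was among these, with a KO step of 1.77 against 3.97 in WT. Krt8 rose in both, by 3.70 in WT and 2.41 in KO cells, and the difference of 1.29 was called on the VST scale (adjusted p = 3.46e-05) and not with limma-voom (0.44, adjusted p = 0.308). Krt18 rose by 2.42 and 2.05, a difference of 0.37 (adjusted p = 0.117, limma) that was not called. The largest negative differences were in Trh, Mkrn1, Sall2, Pim2 and Dnmt3b. Trh, which encodes thyrotropin-releasing hormone, fell in WT and was higher at day 4 than at day 2 in KO cells, with 505 to 1979 at day 2 and 3349 to 4634 at day 4; Dnmt3b stood at 17612 to 21062 in the KO libraries of day 4, against 5919 and 5640 in WT.

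**Figure D5:**
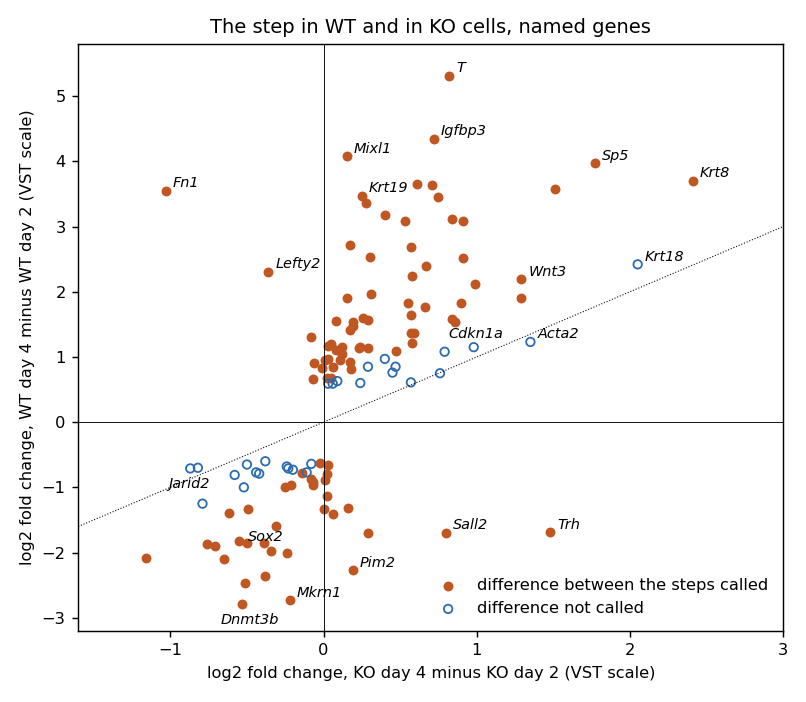
Log2 fold change from day 2 to day 4 (VST scale) in KO cells (x axis) against WT cells (y axis) for 126 named genes called in WT; each point is 1 gene, filled where the difference between the steps was called (98 genes) and open where it was not (28), and the dotted line marks equal steps. All were called in the WT step, and some were named for the difference between the steps itself. Both choices favour a larger step on the WT axis and a called difference. Among all genes called in WT, the difference was called with the same sign in 63.9% of the rises and 48.0% of the falls. Fn1, Lefty2, Sall2, Pim2 and Trh are among the genes whose steps have opposite signs.

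The step was also compared with the one before it, from day 0 to day 2 in WT. The steps share the day 2 libraries, so only the test of their difference is given as a result: 1921 genes were more positive in the later step (9.28%) and 1393 more negative (6.73%). Pim2, Dnmt3b, Sall2, Pou3f1 and Enpp2 had the most negative differences. Pim2, for instance, had 680 and 601 normalized counts at day 0, 13922 and 13435 at day 2 and 2421 and 2279 at day 4 (difference −5.84), and Enpp2, the enzyme autotaxin, had 41.9 and 28.8, then 1398 and 1504, then 155 and 136. The most positive differences were those of Fn1 (5.78), T (5.29), Vim (4.82), Tbx3 (4.47) and Col5a1 (4.21). Vim had 6455 and 6491 at day 0, fell to 1626 and 1718 at day 2 and then rose past the day 0 value, whereas T had 11.7 and 31.7 at day 0, like day 2. Fn1, Vim, Tbx3 and Col5a1 all had their lowest WT mean at day 2. Feeder cells were withdrawn between day 0 and the later days, so the earlier step also holds their removal. The 7 defining feeder markers summed to 2616 and 2555 normalized counts at day 0 and to 1045 and 900 at day 2. The part of feeder RNA in the day 0 values was not tested.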

How the data were processed

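Polyadenylated RNA of 18 libraries was sequenced, and per the labels and the methods of the study the reads were trimmed with Trim Galore 0.6.7, aligned with STAR 2.7.11a to mm39 and counted on exons with featureCounts 2.0.6 (primary, nonduplicated; strand setting not given in the sources used here). The authors removed genes with a mean count under 1 and deposited DESeq2 1.42.0 variance stabilized values on the log2 scale. These were fitted with limma 3.58.1 (R 4.3.3, trended prior, 6 groups of genotype and day, KO clones pooled, no filter), and the fit was tested on simulated data. Inverting the transformation gave whole counts for 100% of values (tolerance 0.01). These counts, used for normalized counts, depth and limma-voom, were even more often than odd at low values, for a cause that was not found. Replicates were kept apart. Against counting noise alone their chi-square per degree of freedom was 4.78 at both days, a value not corrected for the excess of even counts.

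The comparisons were WT day 4 against day 2, the difference of this step between WT and KO, and its difference from the WT step before it. The 28 gene lists and 9 gene families, and the libraries compared, were chosen with earlier results of these data known. Genes named were the 10 largest rises and falls, the first 3 members and the 3 largest called rises and falls of each list (for families the called members only), the 5 largest differences each way for the latter comparisons, and Nsd1; a few genes that the rule names are not reported here. Outside this rule, and after their values were seen, were named Axin2, Dab2, Evx1, Krt7, Lhx1, Lum, Mesp1, Mmp2, Msgn1, Pdgfrb, Postn, Snai1, Snai2, Tbx6, Tet1, Tfcp2l1, Tnc, Twist1 and Zeb1, and the motifs. Reads of overlapping and near-identical genes cannot be told apart. Alternatives covered the unit and test, depth, normalization, filters, thresholds, samples in the fit, KO clone, replicate block and each library left out.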

Additional observations from a re-analysis of the deposited data

Results flagged for a closer look

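The step from day 2 to day 4 differed between WT and KO cells in 1328 genes by the test of the difference itself (limma with Benjamini-Hochberg adjustment). The 5 largest positive differences, WT minus KO, were 4.58 for Fn1, 4.49 for T, 3.93 for Mixl1, 3.63 for Igfbp3 and 3.22 for Krt19. The 5 largest negative differences were −3.17 for Trh, −2.51 for Mkrn1, −2.50 for Sall2, −2.46 for Pim2 and −2.26 for Dnmt3b. Of these 10, T was not called with limma-voom. The KO lines are 2 clones, and genotype and clonal history cannot be told apart.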

How the results depend on the processing

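Counts of called genes moved by more than 1.5 times in 3 settings. With limma-voom on recovered counts, 4988 genes were called from day 2 to day 4 in WT (2534 higher, 2454 lower) and 2866 for the difference from KO; on counts thinned to 9309874 per library these were 4892 (2635 and 2257) and 2665. With a log2 fold change over 1, they were 549 (416 and 133) and 372, and 1238 for the difference from the earlier step. For lists whose counts moved by more than 1.5 times and are not given both ways above, limma-voom called 9 genes of mesoderm derivatives higher and 2 lower, 10 and 2 of the Nodal, 14 and 2 of the Wnt and 11 and 0 of the BMP pathway, 3 and 4 of the retinoid and Cdx list, 1 and 2 of PRC2, 6 and 0 of the cell cycle list, 1 and 5 of glucose use, 5 and 1 of primitive and visceral endoderm and 7 and 1 of the integrins. Leaving out 1 WT library of days 2 and 4 gave 1761 to 1859 genes. Neither labels nor methods say that replicate numbers pair the cultures. The replicate differences of days 2 and 4 had a correlation of −0.333 over genes, which cannot decide this with 1 difference per day. With the replicate block 1176 genes were higher and 629 lower. The crossed pairing, chosen after seeing the data, gave 1178 and 632. Of 126 named genes called in the step, 113 kept the call under every alternative to the test, scaling and samples and 13 lost it in at least 1; 0 reversed. The difference of T between WT and KO was 2.90 with limma-voom and 3.68 on thinned counts, neither called. Changes of genes with few counts are limited by depth, which was lowest at day 2.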

Other observations

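Of 16 genes of the claudin family of tight junction proteins, 2 rose from day 2 to day 4 in WT and 0 fell. Among all genes 5.69% were called higher and 3.07% lower. The 2 claudins were Cldn4 (log2 fold change 1.60) and Cldn12 (0.60), and the call of Cldn12 was lost under quantile normalization (0.47). Limma-voom called 2 higher and 2 lower, near its shares of all genes (12.2% higher and 11.9% lower).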
